A study of Mus musculus with 3 samples.

Results

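The 7 genes described here, Gpha2, Cd63, Sostdc1, Cyp2f2, Ccdc3, Wfdc18 and Tppp3, were chosen from the 17931 genes of a single-cell count matrix of mouse corneal epithelium because they mark cells of the limbus, the ring where cornea meets conjunctiva. Their levels in limbal cells chose them, so the levels and shares by cell class are given as a description, with no test. Only comparisons of cells within a class are tested. Single-cell RNA was sequenced from epithelial suspensions of healthy C57BL/6J corneas in 3 libraries. In library 1 were pooled 4 corneas from 2 males (20 weeks old). Library 2 was made with 4 corneas from 2 females (11 weeks old). Library 3 pooled 7 corneas, taken from 7 males (10 weeks old). The labels give no treatment or altered allele. The mice of a library were pooled, so the replicate is the library. Sex, age and animals cannot be told apart between libraries.

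The limbal epithelium is the recognised home of corneal epithelial stem cells. Their progeny move towards the centre as dividing transit-amplifying and basal cells, then leave the basal layer as wing cells and flatten into superficial cells, while the conjunctiva outside the limbus has its own mucosal epithelium. Gpha2 encodes an alpha subunit that pairs with Gphb5 to form thyrostimulin, a ligand of the thyrotropin receptor, and in the mouse cornea it is known as a marker of quiescent outer limbal cells. Sostdc1 is a secreted antagonist of BMP and modulator of Wnt signalling, Ccdc3 is a secreted coiled-coil protein, and Wfdc18 is a secreted protein with a whey acidic protein domain. Cd63 is a tetraspanin of late endosomes, lysosomes and exosomes, Cyp2f2 is a microsomal cytochrome P450 best known from airway club cells, and Tppp3 binds and bundles microtubules.

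All 7 are protein-coding genes on separate chromosomes. On GRCm38, Gpha2 (ENSMUSG00000024784) lies at chr19:6226380-6227768, Cd63 at chr10:128900989-128912822, Sostdc1 at chr12:36314139-36318452, Cyp2f2 at chr7:27119909-27133660, Ccdc3 at chr2:5137776-5230878, Wfdc18 at chr11:83709015-83711348 and Tppp3 at chr8:105467493-105471526. Gpha2 shares its last 4 bases with Ppp2r5b on the other strand. The promoters of 5 of the 7 genes were found in the RefSeq table of GRCm38.p6. Those of 4 are shown because the genes are high together in the limbal class and yet spread differently beyond it. Each line gives the 150 bases before the start of the transcript on the plus strand, 5′ to 3′, at chr19:6226251-6226400, chr2:5137626-5137775, chr7:27119805-27119954 and chr11:83708854-83709003 in turn, and capitals mark a motif that was searched for.
Gpha2: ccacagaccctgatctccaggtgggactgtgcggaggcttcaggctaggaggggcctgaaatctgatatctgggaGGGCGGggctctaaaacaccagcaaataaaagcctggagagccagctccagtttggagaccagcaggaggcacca
Ccdc3: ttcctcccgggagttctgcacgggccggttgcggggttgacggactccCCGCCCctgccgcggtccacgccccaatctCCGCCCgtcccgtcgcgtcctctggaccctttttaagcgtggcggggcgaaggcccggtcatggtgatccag
Cyp2f2: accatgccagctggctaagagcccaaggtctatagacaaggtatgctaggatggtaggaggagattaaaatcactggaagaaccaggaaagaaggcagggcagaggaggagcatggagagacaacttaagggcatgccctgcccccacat
Wfdc18: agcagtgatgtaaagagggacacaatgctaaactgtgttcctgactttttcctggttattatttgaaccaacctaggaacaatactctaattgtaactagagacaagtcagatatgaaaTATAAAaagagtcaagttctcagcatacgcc
The motifs searched on both strands, in the 300 bases from 250 before to 50 after each start, were the TATA box TATAAA, the GC box GGGCGG and the AP-1 site TGANTCA, none of which overlap each other here. Wfdc18 held a TATA box beginning 31 bases before its start, and 13.6% of the 32851 promoters held 1. A GC box stood at 75 bases before the start in Gpha2, and on the minus strand at 102 and 72 bases before it in Ccdc3, against 35.7% of all promoters with 1. No AP-1 site (7.81% of all promoters) was found in the 5 windows, and none of the 3 motifs in those of Cyp2f2 and Cd63. The Cd63 start used, chr10:128909345, lies well inside the gene span given above, which begins at 128900989. Its window is therefore not at the first base of the gene. The starts of Gpha2 (chr19:6226401) and Cyp2f2 (chr7:27119955) also lie inside their spans, near the first base. Base composition differed widely: the Ccdc3 window had 28 CpG dinucleotides and 66.3% GC, Gpha2 2 and 55.3%, Cyp2f2 0 and 50.3%, Cd63 6 and 49.3%, and Wfdc18 2 and 39.0%. The medians over all promoters were 7 CpG and 52.7% GC, so members of the group lie on both sides of them.

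The matrix held 38111 cells, 9488, 11273 and 17350 by library, with a median of 16159.5, 13232 and 8334 UMIs (unique molecules) per cell. The authors' annotation has 8 classes: LSC (here limbal), Basal, TAC1 and TAC2 (transit-amplifying), Wing, Squam (here superficial), Conj (conjunctival) and Immune. The limbal class had 163, 348 and 226 cells with median depths of 10074, 9151.5 and 6242 UMIs. Of limbal markers other than the 7 genes, Ifitm3, Krt15 and Krt14 together gave 11947 to 13898 CPM (counts scaled to a total of 1e6) in limbal cells and 622 to 1249.7 CPM in basal cells. The conjunctival class had 22632 to 28069.9 CPM of the same 3, nearly all of it Krt15, so Krt15 does not set limbal apart from conjunctival cells. Wing cells had 4647 to 6013 CPM of the 3 and superficial cells 2619 to 4072 CPM, both above basal cells. Conjunctival keratins summed to 1847 to 2523 CPM in limbal cells against 12221 to 14835 CPM in conjunctival cells, and the corneal list to 8759.6 to 10786 CPM against 33619 to 38215 CPM in basal cells. Immune markers stood at 1.27 to 3.46 CPM in limbal cells with Ptprc at 0, and Pecam1 (endothelium) and Scgb1a1 (club cells) were at 0. Of the goblet list, Muc5ac was not in the matrix and Spdef was at 0, but Agr2 stood at 41.3, 32.5 and 57.1 CPM in limbal cells. Conjunctival cells had 48.6, 45.7 and 36.3 CPM of Agr2, and goblet genes in basal cells gave 0.942, 1.04 and 0.486 CPM. Libraries shared 32, 57 and 53 cell barcodes by pair, out of 38111 cells.

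Gpha2 was the most abundant of the 7 in UMIs, which count transcripts by their 3′ ends and not by length. Its level, as CPM of the UMIs summed over the limbal cells of a library, was 2671, 2847 and 2582 CPM in libraries 1, 2 and 3 (2700.0 ± 135, SD, n = 3). Basal cells had 122, 154 and 70.3 CPM, TAC1 cells 127, 158 and 78.6 CPM, and TAC2 cells 109, 222 and 66.1 CPM. Limbal cells were therefore 18.5 to 36.7 times basal cells, and the lowest limbal library stood more than 10 times above the highest library of any other class. Conjunctival cells carried 82.9, 129 and 54.3 CPM, wing cells 23.6, 26.6 and 15.3 CPM, and superficial cells 30.7, 35.2 and 27.1 CPM. Basal, TAC1, TAC2 and conjunctival ranges overlapped and could not be ordered, all of them lay above the superficial range, and in each class from basal to conjunctival library 3 was lowest and library 2 highest. Though limbal cells are few, they held 41.5% of all Gpha2 UMIs, basal cells 16.2% and TAC1 cells 12.3%. Because counts are relative, fewer Gpha2 cells and less Gpha2 RNA per cell cannot be told apart in a class sum.

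Sostdc1, the BMP and Wnt antagonist, was the scarcest of the 7 and reached furthest into the basal layer. Its limbal level was 18.1, 13.1 and 10.4 CPM by library (13.9 ± 3.93, SD, n = 3). Basal cells had 2.19, 3.56 and 1.95 CPM, TAC1 cells 1.77, 3.55 and 2.21 CPM, and TAC2 cells 2.10, 5.66 and 2.20 CPM. The limbal range lay above the others by 3.68 to 8.29 times over basal cells, and the 3 basal-layer classes overlapped. In the conjunctival class only 7 Sostdc1 UMIs were counted in all (0.169 CPM), below every basal-layer class. Basal cells, being more numerous, held 31.6% of its UMIs and limbal cells 18.6%.

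Ccdc3, the secreted coiled-coil protein, was the most confined by its share of UMIs, with 72.1% of them in limbal cells. Limbal levels were 101, 113 and 78.4 CPM (97.5 ± 17.5, SD, n = 3). TAC2 cells had 1.75, 9.75 and 1.79 CPM, and conjunctival cells 2.72, 3.38 and 1.36 CPM. Limbal cells thus exceeded conjunctival cells by 33.4 to 57.8 times and TAC2 cells by 11.6 to 57.9 times, with library 2 giving the high TAC2 value. Basal cells held 3, 6 and 2 Ccdc3 UMIs and TAC1 cells 0, 16 and 0, so no fold over these classes is given.

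Wfdc18, the secreted whey acidic protein gene, varied most between libraries. It stood at 55.2, 382 and 13.3 CPM in limbal cells and at 3.91, 69.4 and 0.933 CPM in conjunctival cells. TAC2 cells had 2.62, 29.4 and 4.55 CPM. Within each library the limbal level was the highest, 5.50 to 14.2 times the conjunctival level and 2.91 to 21.1 times that of TAC2 cells, but across libraries the 3 classes overlapped. Library 2 was high in all 3 classes. It is also the only library from female mice, and its sex, age and animals cannot be told apart. Few cells carried the transcript: 35 of 737 limbal cells had at least 10 UMIs and held 81.9% of the 1785 limbal UMIs, 1 cell of library 2 held 210 of them, and 13 TAC2 cells held 92.1% of the 481 TAC2 UMIs.

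Cd63, the endosomal tetraspanin, had the most even limbal level, 118, 122 and 123 CPM (121 ± 2.50, SD, n = 3). Conjunctival cells had 6.46, 10.9 and 6.19 CPM, TAC2 cells 3.32, 9.01 and 1.87 CPM, and basal cells 0.678, 1.68 and 0.861 CPM. Among epithelial classes the limbal level stood apart by 11.1 to 19.8 times over conjunctival cells and 72.4 to 174 times over basal cells. The immune class was higher still, at 187, 245 and 536 CPM, with no overlap, so Cd63 is limited to limbal cells only within the epithelium.

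Cyp2f2, the cytochrome P450, extended into the conjunctiva and not into the basal layer. Limbal cells had 311, 150 and 166 CPM (209 ± 88.8, SD, n = 3) and conjunctival cells 79.2, 84.5 and 37.5 CPM. The ranges did not overlap, and the ratio within a library was 1.78 to 4.43. TAC2 cells had 3.14, 6.10 and 3.17 CPM. Basal cells had 4, 8 and 5 UMIs in all (0.151, 0.320 and 0.187 CPM). As there are more conjunctival than limbal cells, they held 55.8% of Cyp2f2 UMIs and limbal cells 35.5%.

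Tppp3, the microtubule-binding gene, was not confined to limbal cells. Its limbal level was 86.4, 171 and 91.1 CPM (116 ± 47.7, SD, n = 3) and its conjunctival level 119, 140 and 80.2 CPM (113 ± 30.5). These overlapped, with limbal over conjunctival ratios of 0.727, 1.22 and 1.14, and conjunctival cells became the higher class with TMM scaling (1.33 times) and without replicate 2 (1.12 times) or 3 (1.01 times). Wing cells had 38.0, 36.5 and 25.2 CPM and superficial cells 23.7, 29.9 and 25.7 CPM. Both lay below conjunctival and above basal cells, which had 1.39, 2.80 and 1.27 CPM. Wing cells held 48.6% of Tppp3 UMIs and limbal cells 6.40%.

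**Figure D1:**
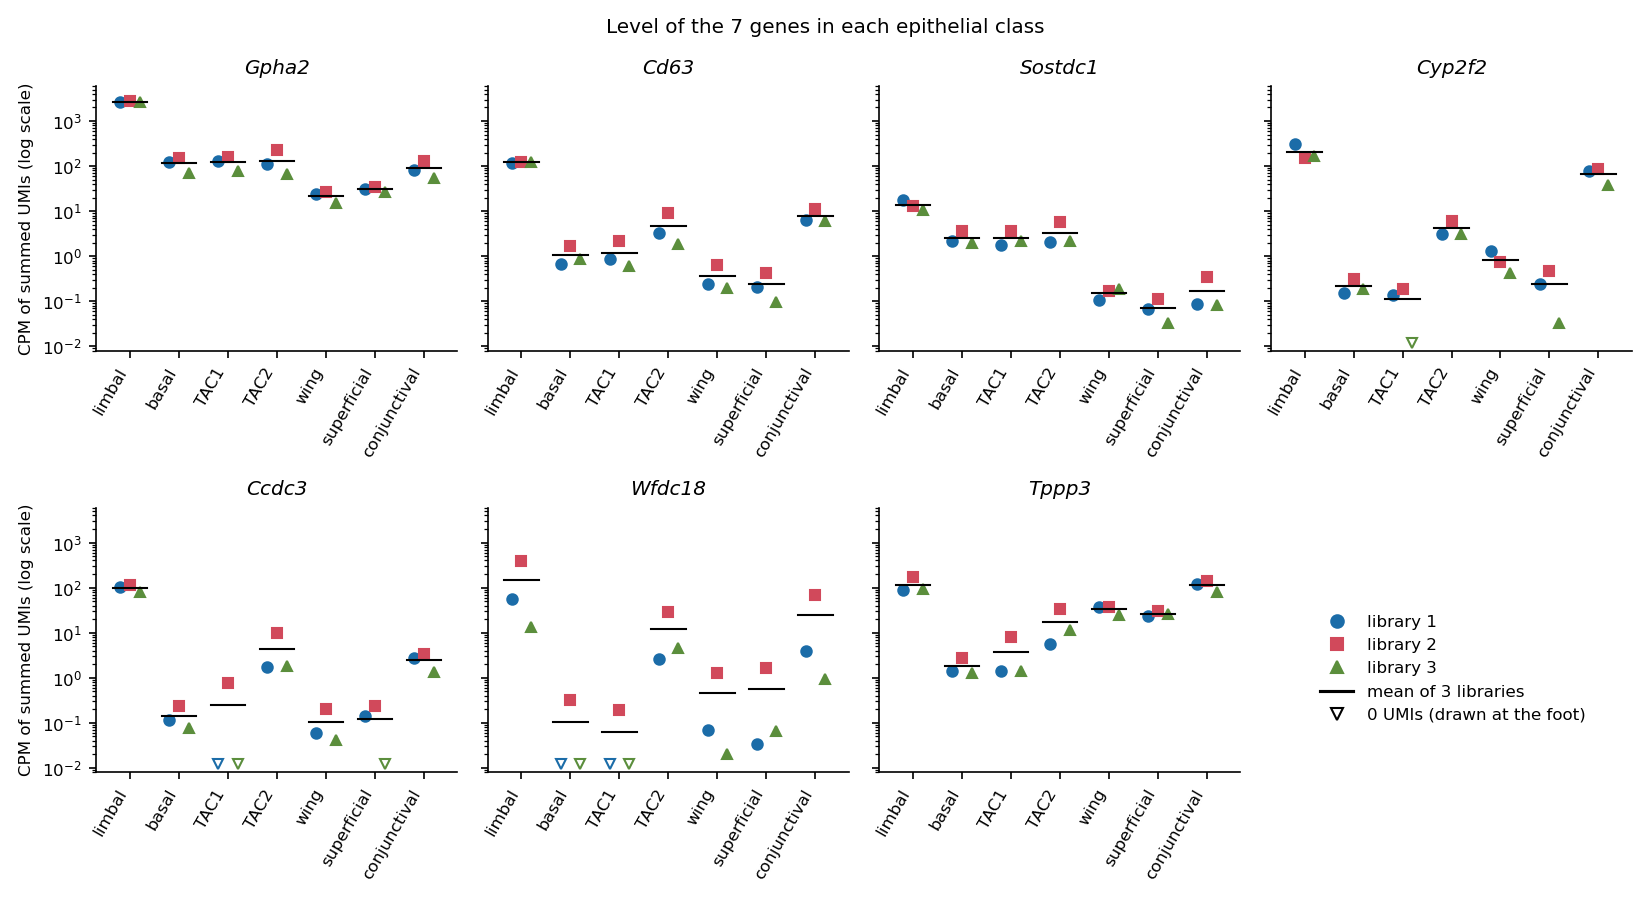
Level of the 7 genes (CPM of UMIs summed per class and library, log axis) in each class, with 1 point for each of the 3 libraries and a line at their mean. Gpha2 stands at 2582 to 2847 CPM in limbal cells and below 223 CPM in every other class, while limbal and conjunctival points overlap for Tppp3.

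The choice used these levels, and the following counts describe it. Limbal cells were the highest of the 7 epithelial classes in all 3 libraries for 6 of the 7 genes, all but Tppp3, against 9.43% of the 12635 genes with a mean of at least 1 CPM in a class. At least 5 times every other epithelial class in all 3 libraries was reached by Gpha2, Ccdc3 and Cd63, against 0.879% of genes. At least 10 times the basal level was reached by all but Sostdc1, against 2.97%, though for Ccdc3, Wfdc18 and Cyp2f2 on at most 8 basal UMIs in a library. By the lowest ratio of limbal to the next class in any library, Gpha2 (12.8), Ccdc3 (11.6) and Cd63 (11.1) ranked 23, 28 and 33 of these genes, Wfdc18 (2.91), Sostdc1 (2.32) and Cyp2f2 (1.78) ranked 211, 253 and 332, and Tppp3 (0.727) ranked 4539. Other genes were thus more strictly confined than Gpha2 by this ratio, though they were not members. The ranking took in genes from a mean of 1 CPM up, and the ratios of such scarce genes can rest on few UMIs.

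To compare shares of positive cells, each cell was thinned to 2000 UMIs, which left out 10 of 737 limbal cells. At that depth Gpha2 was found in 83.3% (135 of 162), 86.7% (300 of 346) and 75.3% (165 of 219) of limbal cells, a mean of 81.8% ± 5.84 (SD, n = 3). Basal cells were positive in 19.2%, 20.7% and 11.6%, TAC1 cells in 23.4%, 22.4% and 12.7%, TAC2 cells in 14.6%, 20.0% and 8.36%, and conjunctival cells in 11.2%, 18.7% and 12.03%. Wing cells, which lie above the basal layer and served as the background, were positive in 3.802%, 4.51% and 2.90%, and superficial cells in 4.98%, 5.72% and 5.57%. Shares in each library were thus above the wing share in all 4 of the classes from basal to conjunctival. Without thinning, the means were 93.8% in limbal, 44.3% in basal and 25.5% in wing cells, at median depths of 6242 to 10074, 5818 to 13166 and 10704.5 to 19346.5 UMIs. With at least 2 UMIs per thinned cell, the limbal share was 70.1% ± 6.54 (SD, n = 3), the basal share 4.43%, TAC1 5.09%, TAC2 4.58%, conjunctival 2.55% and wing 0.326%. RNA released into the suspension can also give such single UMIs, and its part was not tested. A limbal cell held a median of 4.5, 5 and 3 Gpha2 UMIs of its 2000 by library and at most 43, and a basal cell a median of 0 and at most 20.

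The other 6 genes were found in fewer limbal cells. At 2000 UMIs per cell, Cd63 was found in 25.3%, 28.6% and 27.9% of limbal cells, against means of 1.73% of conjunctival, 0.226% of basal and 0.0538% of wing cells. Ccdc3 was found in 25.9%, 22.5% and 14.2% of limbal cells, against 0.690% of conjunctival, 0.668% of TAC2 and 0.0399% of basal cells. Both genes were thus seen in a minority of limbal cells and in few other epithelial cells at this depth, while 26 of 56 immune cells (46.4%) had a Cd63 UMI. Cyp2f2 was found in 29.0%, 15.6% and 19.2% of limbal and in 12.7%, 11.5% and 6.60% of conjunctival cells, against 0.0641% of basal cells. Tppp3 was found in 16.7%, 22.8% and 17.4% of limbal and 17.8%, 21.3% and 13.4% of conjunctival cells, and in 4.76% of wing and 0.451% of basal cells. For Tppp3 the limbal and conjunctival shares overlapped, as the levels did. Wfdc18 was found in 4.94%, 15.6% and 2.28% of limbal cells and 0.759%, 5.12% and 0.194% of conjunctival cells. Sostdc1 was found in 6.17%, 3.76% and 1.83% of limbal, 0.571%, 1.04% and 0.401% of basal and no wing cells. In basal cells Sostdc1 was found most often of these 6 genes. Unthinned mean shares of limbal cells were 62.9% for Cd63, 50.7% for Ccdc3, 44.0% for Tppp3, 36.9% for Cyp2f2, 15.6% for Wfdc18 and 13.2% for Sostdc1.

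Most limbal cells carried at least 2 of the 7 genes and few other cells did. At 2000 UMIs per cell, 676 of 727 limbal cells (93.0%) had at least 1 of the 7, 422 (58.0%) at least 2 and 177 (24.3%) at least 3, and none had all 7. By library, 61.7%, 60.7% and 51.1% of limbal cells had at least 2. Among basal cells 17.1% had at least 1 but only 32 of 8596 (0.372%) at least 2, and among TAC1 cells 18 of 4106 had at least 2. The share with 2 or more rose to 68 of 2999 TAC2 cells (2.27%) and 198 of 2398 conjunctival cells (8.26%). Of the 68 TAC2 cells, 46 came from library 2, 97.1% had Krt15, 54.4% Ifitm3 and 20.6% mucosal keratins, against 25.1%, 13.2% and 0.751% of TAC2 cells with none of the 7, and 8.82% were among the cells of highest doublet score (the top 5% of each library by likeness to simulated doublets). Krt15 was also found in 57.4% of wing and 63.0% of superficial cells with none of the 7, so it is not particular to limbal cells. The 51 limbal cells with none of the 7 had a higher median depth, 15172 UMIs against 8451.5 for those with 2 or more. Of those 51 cells 58.8% were among the cells of highest doublet score, against 4.74% of those with 2 or more, and 33.3% against 70.6% had Ifitm3. The part of mixed droplets in the class was not tested.

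**Figure D2:**
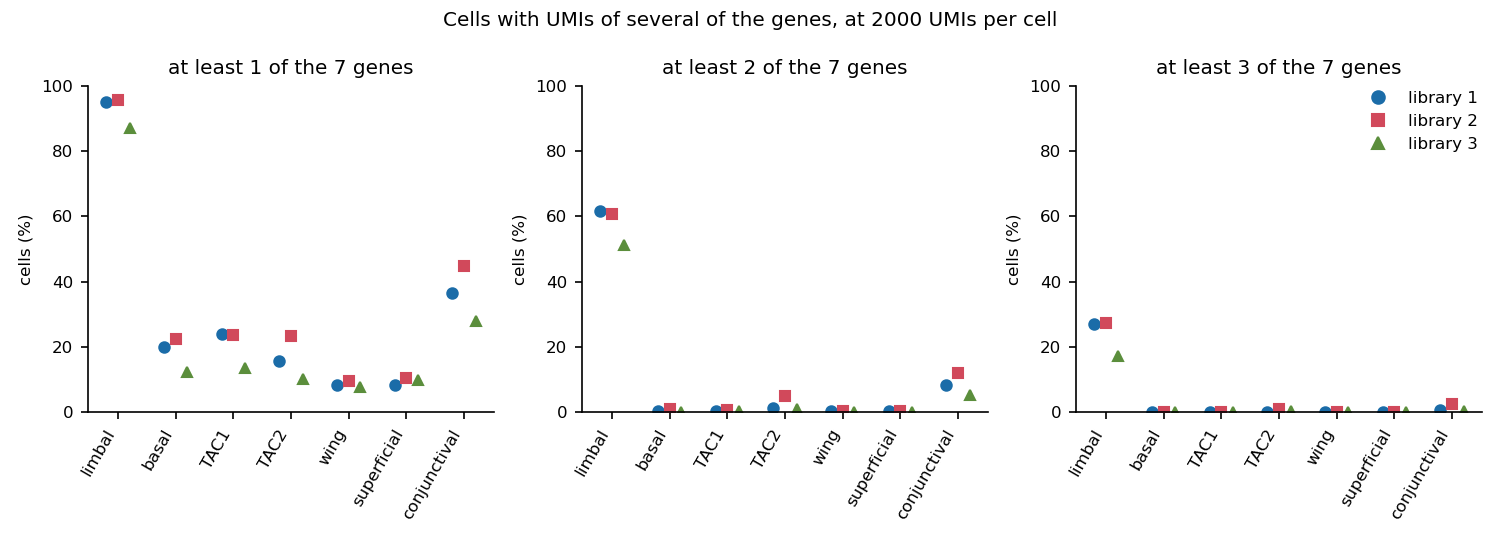
Share of cells (%) with a UMI of at least 1 and of at least 2 or 3 of the 7 genes at 2000 UMIs per cell, by class, with points for the 3 libraries. Limbal cells with at least 2 reach 51.1% to 61.7%, and basal cells 0.372% over all libraries.

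Where Gpha2 UMIs appeared outside the limbal class, the other genes accompanied them differently. In limbal cells there were 3.73 Ccdc3 UMIs per 100 Gpha2 UMIs (95% exact interval 3.48 to 4.00, counting error only, as for the intervals that follow). TAC2 cells had 3.43 (2.93 to 3.99) and conjunctival cells 2.78 (2.25 to 3.40), but basal cells only 0.123 (0.0613 to 0.220) and TAC1 cells 0.234 (0.134 to 0.381). By library the TAC2 ratio was 1.60, 4.39 and 2.71 and the basal ratio, on 3, 6 and 2 Ccdc3 UMIs, had intervals of 0.0191 to 0.271, 0.0572 to 0.340 and 0.0129 to 0.385. Cd63 also had a lower ratio in basal cells, with 4.41 (4.14 to 4.70) per 100 Gpha2 UMIs in limbal, 3.605 (3.09 to 4.18) in TAC2 and 0.926 (0.737 to 1.15) in basal cells, but unlike Ccdc3 it was above the limbal ratio in conjunctival cells, at 8.83 (7.83 to 9.91). Sostdc1 went the other way, with 0.509 (0.421 to 0.611) in limbal cells and 2.22 (1.92 to 2.56) in basal, 1.98 (1.65 to 2.34) in TAC1 and 2.52 (2.09 to 3.00) in TAC2 cells. In class sums, basal cells thus had less Ccdc3 and more Sostdc1 per Gpha2 than limbal cells. Cyp2f2 stood at 7.26 (6.90 to 7.63) in limbal, 0.190 (0.110 to 0.304) in basal and 74.5 (70.8 to 78.3) in conjunctival cells.

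**Figure D3:**
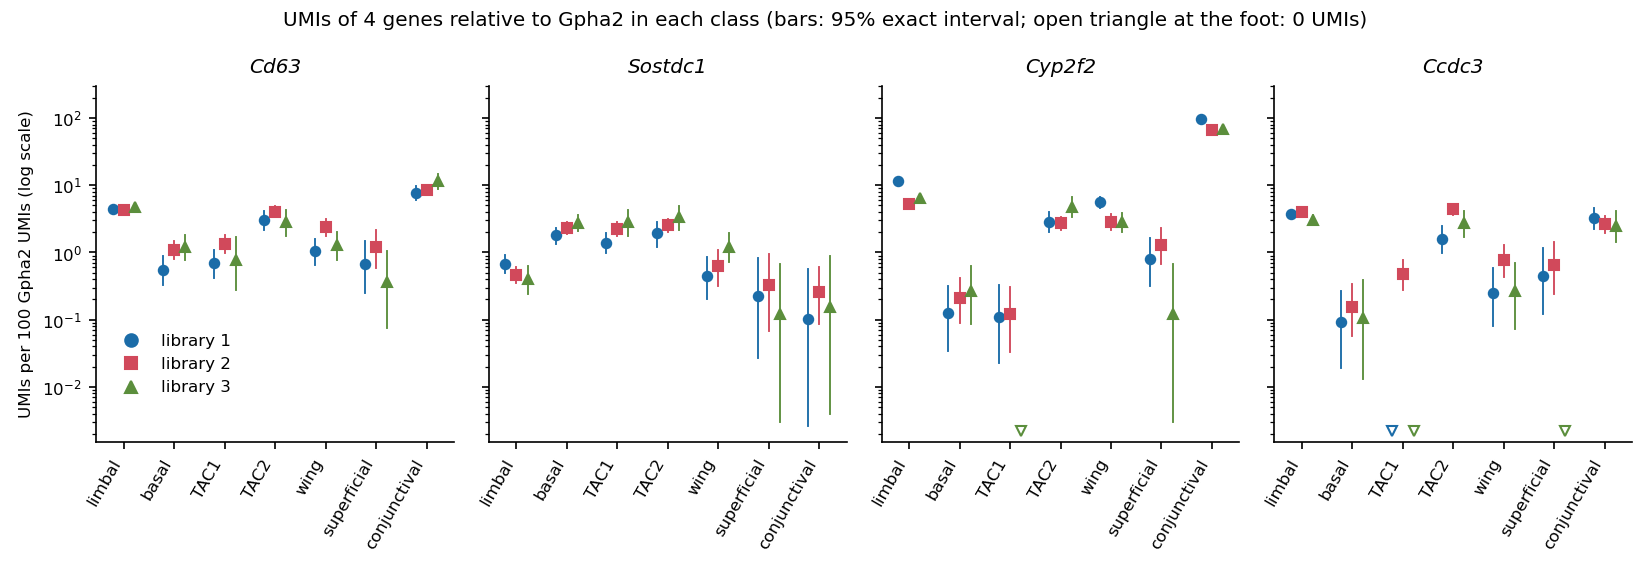
UMIs of Cd63, Sostdc1, Cyp2f2 and Ccdc3 per 100 UMIs of Gpha2 (log axis) by class, with points for the 3 libraries and bars for the 95% exact interval (open triangles at the foot: 0 UMIs). Ccdc3 per Gpha2 is at 3.04 to 3.96 in limbal cells and no basal interval reaches above 0.385.

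Gpha2 was also distributed over cells differently. In unthinned TAC2 cells, 101 of 3186 cells had at least 10 Gpha2 UMIs and held 58.0% of the class's Gpha2 (43.4%, 69.4% and 38.6% by library), 64 of them from library 2. In basal cells 112 of 8829 had at least 10 and held 18.03% (15.4%, 26.8% and 4.47% by library). In each library a larger part of the TAC2 signal than of the basal signal lay in such cells. Deeper cells reach 10 UMIs more easily. Median depth in TAC2 against basal cells was 13033 against 13166, 12016 against 9865 and 7277 against 5818 UMIs by library. At 2000 UMIs, Ccdc3 was found in 3.97% (16 of 403) of TAC2 cells with Gpha2 and in 0.154% (4 of 2596) of those without. In basal cells the member seen most often beside Gpha2 was Sostdc1, in 1.30% (18 of 1385) of cells with Gpha2 and 0.499% (36 of 7211) of those without.

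Limbal cells with a Gpha2 UMI (135, 300 and 165 cells by library) were then compared with limbal cells without (27, 46 and 54), over counts summed per library at 2000 UMIs per cell, with edgeR's quasi-likelihood test, library as a block and Benjamini-Hochberg adjustment over all genes tested. Ccdc3 was higher with Gpha2, Cyp2f2 lower, and a call was reached by 5 of the 5 other members tested, against 13.8% of the 2426 genes tested (334 genes, 168 or 6.92% higher and 166 or 6.84% lower). Ccdc3 was at 175, 164 and 116 CPM with Gpha2 and 130, 32.6 and 9.26 CPM without, a log2 fold change of 1.80 ± 0.40 (SE, adjusted p = 1.4e-04, edgeR), higher in 3 of 3 libraries although library 1 without overlapped the others with. The levels without Gpha2 rest on 7, 3 and 1 Ccdc3 UMIs by library, against 47, 98 and 38 with. Ccdc3 could thus pass the filter on low counts mainly through its counts with Gpha2, which favoured the call of a rise. The call alone cannot decide whether Ccdc3 rose. Leaving out replicate 2 ended this call (1.49, adjusted p = 0.132, edgeR), as did 1000 UMIs per cell (1.201, adjusted p = 0.0536, edgeR). Cyp2f2 was at 223, 125 and 149 CPM with Gpha2 and 463, 261 and 241 CPM without. Its levels fell by 0.85 ± 0.23 on the log2 scale (SE, adjusted p = 0.0027, edgeR) in 3 of 3 libraries, without overlap of the groups. This call was lost in 7 alternatives, among them the fit without the library block (adjusted p = 0.0603, edgeR) and DESeq2 (adjusted p = 0.0957). The remaining 3 calls had mixed signs among libraries. Cd63 was at 138, 177 and 204 CPM with Gpha2 and 167, 97.8 and 64.8 CPM without (0.91 ± 0.30, SE, adjusted p = 0.0251, edgeR), and the call was lost in 5 alternatives: DESeq2 (adjusted p = 0.344), no library block (0.100281), without replicate 2 (0.270) or 3 (0.463), and without the cells of highest doublet score (0.346). Tppp3 was at 104, 144 and 73.1 CPM with and 92.6, 293 and 176 CPM without (-0.82 ± 0.28, SE, adjusted p = 0.0306, edgeR), a call lost in 6 alternatives: DESeq2, no filter, no library block, 4000 UMIs, and without replicate 2 or 3 (adjusted p = 0.162 to 0.410). Wfdc18 was at 67.0, 249 and 9.13 CPM with and 55.6, 783 and 46.3 CPM without (-1.41 ± 0.25, SE, adjusted p = 9.5e-07, edgeR). It was not called without replicate 2 (adjusted p = 0.660, edgeR), without the block (adjusted p = 0.744, edgeR) or by DESeq2 (adjusted p = 0.0854). At 4000 UMIs its sign reversed (0.48, adjusted p = 0.487, edgeR), and at 1000 UMIs it was not among the genes tested. Sostdc1 did not pass the filter on low counts, with 10, 13 and 4 UMIs with Gpha2 and 1 in each library without.

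In the same comparison, the largest rises were those of Rdh10 (2.90), a retinol dehydrogenase, Atp1b1 (2.64), a sodium pump subunit, Kitl (2.34), the ligand of Kit, Htra1 (2.23), a secreted serine protease, and Apoe (2.19), a lipid carrier, as log2 fold changes. The largest falls were in Ube2c (-3.66) and Prc1 (-2.86), which act in mitosis, Nccrp1 (-3.21), Ifit1bl1 (-3.09), and Asprv1 (-2.96), a protease of differentiated epidermis. Without Gpha2, Rdh10 and Atp1b1 were at most 21.4 CPM in a library, Htra1 36.0 CPM and Kitl 83.0 CPM. With Gpha2, Ube2c, Nccrp1, Ifit1bl1 and Prc1 were at most 39.1 CPM. Genes this scarce in 1 arm could pass the filter mainly through the other arm. The filter thus favoured their calls, and the sizes of these folds rest on few UMIs. Cells of highest doublet score made up 8.15%, 8% and 9.70% of the limbal cells with Gpha2 and 29.6%, 23.9% and 37.0% of those without. Median depth was 9762, 9020 and 5892 UMIs with and 14990, 11474 and 7759.5 without. The calls numbered 214 without the cells of highest doublet score, and 183 of the 334 were called in the same direction.

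A second division of the same limbal cells was by mucosal keratins, with at least 3 UMIs of Krt4, Krt13 and Krt19 together (35, 87 and 60 cells) against fewer (127, 259 and 159). Gpha2, Cd63 and Ccdc3 were lower in the mucosal cells and Cyp2f2 and Tppp3 higher. All 6 members tested were called, against 24.8% of the 2670 genes tested (661 genes, 359 higher and 302 lower). Gpha2 was at 1334, 1312 and 629 CPM with mucosal keratins and 4206, 4035 and 4400 CPM without (-2.07 ± 0.21, SE, adjusted p = 2.1e-04, edgeR), lower in 3 of 3 libraries, without overlap. With 2 UMIs as the threshold it missed the call (-1.99, adjusted p = 0.0782, edgeR). Cd63 was at 28.7, 86.7 and 50.3 CPM with and 173, 193 and 214 CPM without (-1.72 ± 0.28, SE, adjusted p = 7.2e-06, edgeR), again without overlap, and was not called at 1000 UMIs (adjusted p = 0.0620, edgeR). Ccdc3 was at 71.7, 75.1 and 50.3 CPM with and 193, 170 and 104 CPM without (-1.29 ± 0.29, SE, adjusted p = 5.3e-04, edgeR). The levels with mucosal keratins rest on 2, 15 and 6 UMIs of Cd63 and 5, 13 and 6 UMIs of Ccdc3. Ccdc3 was not called by DESeq2 (adjusted p = 0.0798), at 1000 UMIs (adjusted p = 0.128, edgeR) or at the 2-UMI threshold (adjusted p = 0.130, edgeR). Cyp2f2 rose, from 201, 81.1 and 88.1 CPM without to 488, 329 and 394 CPM with (1.73 ± 0.20, SE, adjusted p = 6.4e-09, edgeR), and the groups did not overlap. Tppp3 rose from 82.7, 127 and 66.0 CPM to 172, 272 and 184 CPM (1.09 ± 0.23, SE, adjusted p = 2.6e-04, edgeR), also without overlap, and was not called by DESeq2 (adjusted p = 0.0549). Wfdc18, at 57.4, 526 and 33.5 CPM with and 66.9, 251 and 12.6 CPM without (0.86 ± 0.23, SE, adjusted p = 0.0032, edgeR), had mixed signs. Its call was lost without replicate 2 (adjusted p = 0.845, edgeR), without the library block (adjusted p = 0.737, edgeR) and with DESeq2 (adjusted p = 0.522).

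Mucosal cells still carried Gpha2 in 60%, 72.4% and 45.0% of cells, against 89.8%, 91.5% and 86.8% of the rest. They included 25.7%, 25.3% and 36.7% cells of highest doublet score, against 7.87%, 5.02% and 8.81% in the rest, and the part of doublets was not tested. Other genes higher with mucosal keratins were Cyp2a5 (4.84), a P450 of the same family as Cyp2f2, Upp1 (4.44), Krt6b (3.95), Alox12e (3.63) and Hopx (3.48), and lower ones Pltp (-4.60), a phospholipid transfer protein, Htra1 (-2.95), Kitl (-2.88), Spon2 (-2.64) and Vsnl1 (-2.47), as log2 fold changes. With mucosal keratins, Pltp was at 0, 6.26 and 0 CPM by library and Htra1 at 0, 25.1 and 0 CPM. Spon2 and Vsnl1 were at most 25.1 CPM there and Kitl 64.9 CPM. Without mucosal keratins, Cyp2a5 and Upp1 were at most 32.4 CPM and Alox12e 50.9 CPM. Genes this scarce in 1 arm could pass the filter mainly through the other arm, so the filter favoured their calls. The sizes of these folds rest on few UMIs. Pltp was also among the genes most like Gpha2 across classes.

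**Figure D4:**
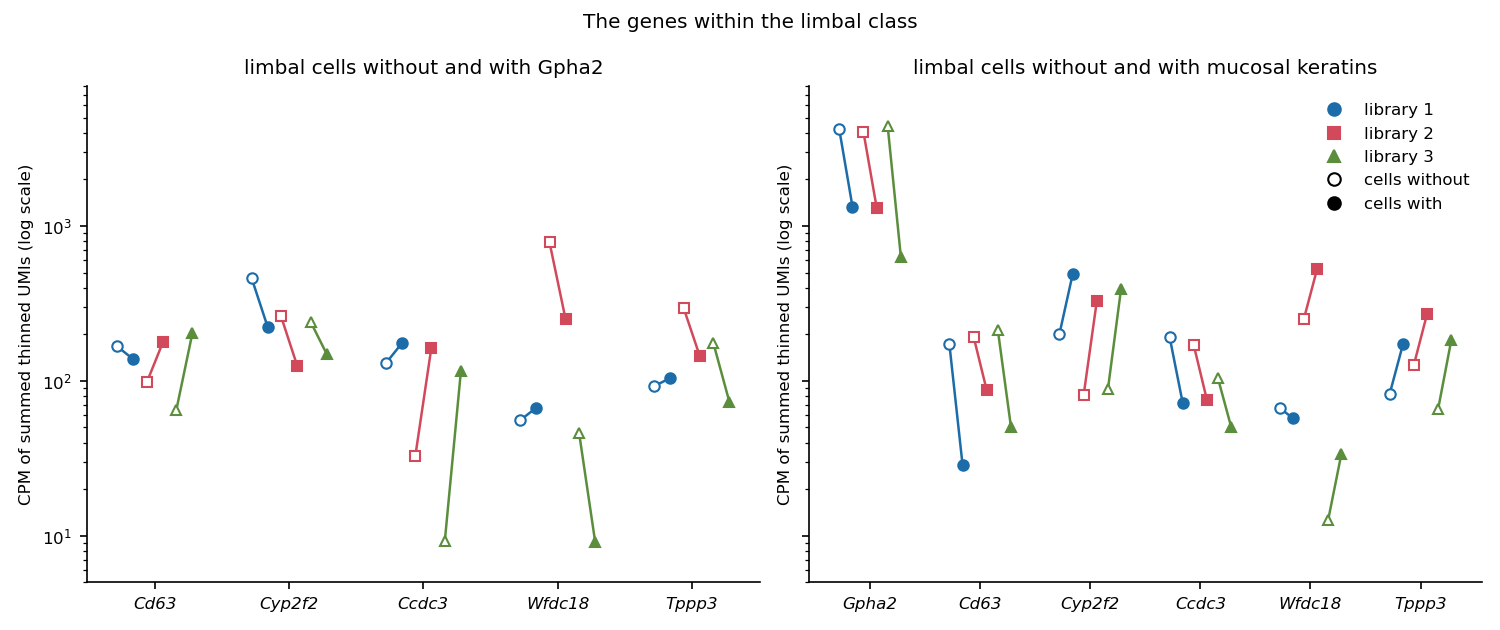
Levels of the tested genes (CPM at 2000 UMIs per cell, log axis) in cells with (filled) and without (open) Gpha2 or mucosal keratins, with a line joining both values of each of the 3 libraries. Gpha2 in limbal cells is at 629 to 1334 CPM with mucosal keratins and 4035 to 4400 CPM without.

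Basal cells with Gpha2 (404, 519 and 462 cells) differed little from those without (1698, 1988 and 3525). Of 9053 genes 44 were called (0.486%), 26 higher and 18 lower, and none of the other 6 members passed the filter on low counts. Krt15 (0.95), a keratin, Defb1 (0.94), a defensin, Ifitm1 (0.92), Apoe (0.86) and Tmem176b (0.77) were higher. Jpt1 (-0.67), Fam25c (-0.51), Lypd3 (-0.48), Fdps (-0.48), an enzyme of sterol synthesis, and Homer2 (-0.45) were lower, as log2 fold changes. Without the library block edgeR called 0 genes, with 291 at an unadjusted p under 0.05.

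In the transit-amplifying cells, TAC1 and TAC2 summed, 413, 553 and 259 cells had Gpha2 and 1616, 2019 and 2245 had none. Of 9317 genes 78 were called (0.837%), 58 (0.623%) higher and 20 lower, and Tppp3 alone of the members passed the filter. It was at 6.06, 24.4 and 9.66 CPM with Gpha2 and 2.78, 10.4 and 7.13 CPM without, higher in 3 of 3 libraries (1.04 ± 0.32, SE, adjusted p = 0.0984, edgeR) and not called. It was called at 4000 UMIs per cell (1.18, adjusted p = 2.7e-05, edgeR) and with 2 Gpha2 UMIs as the threshold (2.06, adjusted p = 0.0012, edgeR). With no filter on low counts the other 5 were called higher, Ccdc3 by 3.71, Wfdc18 by 3.98, Cd63 by 3.36, Cyp2f2 by 3.50 and Sostdc1 by 1.91 on the log2 scale, on few UMIs that came mostly from library 2, and with mixed signs among libraries for Wfdc18. With the filter and 4000 UMIs per cell, Cd63 (3.28), Cyp2f2 (3.93) and Wfdc18 (4.12) were also called, each higher in 3 of 3 libraries, and Sostdc1 was not (0.97, adjusted p = 0.154, edgeR). Without replicate 1, Sostdc1 passed the filter and was called (2.12, adjusted p = 0.0341, edgeR). At the main setting, cells without Gpha2 had only 0.619, 0.495 and 0.445 CPM of Cd63 and 0, 0.248 and 0.891 CPM of Cyp2f2. Wfdc18 was at 0, 0.495 and 2.67 CPM there and Sostdc1 at 1.55, 2.48 and 2.45 CPM. Members this scarce without Gpha2 could pass the filter mainly through their counts with Gpha2. The filter thus favoured calls of a rise, and these calls cannot decide whether the scarce members rose. Apoe (1.40), Tmem176a (1.09), Tmem176b (1.05), Ifitm3 (0.95) and Ptn (0.89), a heparin-binding growth factor, were higher, and Fam25c (-0.49), Hist1h1c (-0.47), Cd44 (-0.43), Hist1h2bc (-0.39) and Dap (-0.39) lower. TAC2 made up 24.5%, 34.0% and 44.0% of the cells with Gpha2 and 36.7%, 37.3% and 55.7% of those without. Without the library block edgeR called 0 genes, with 338 at an unadjusted p under 0.05.

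Conjunctival cells with Gpha2 (59, 157 and 124 cells) carried more Cyp2f2 than those without (468, 683 and 907). Cyp2f2 was at 263, 239 and 117 CPM with and 94.0, 84.2 and 34.2 CPM without, a log2 fold change of 1.53 ± 0.17 (SE, adjusted p = 8.4e-07, edgeR), higher in 3 of 3 libraries without overlap. The call was lost at 1000 UMIs per cell (0.89, adjusted p = 0.236, edgeR) and without the library block (adjusted p = 0.840, edgeR). It was 1 of the 2 members tested to be called, against 0.856% of the 5371 genes tested (46 genes, 26 higher and 20 lower). Tppp3 was at 84.8, 140 and 80.7 CPM with and 124, 147 and 85.998 CPM without (-0.18 ± 0.18, SE, adjusted p = 0.845, edgeR). The Cyp2f2 effect thus had the opposite sign to that in limbal cells, and the difference itself, tested as an interaction chosen after seeing the data, was 2.37 ± 0.29 on the log2 scale (SE, adjusted p = 4.4e-14, edgeR), against 3.1% of the 4229 genes called. The interaction was fitted for every pair of classes, and of all genes it called 3.66% between basal and limbal cells, 4.12% between transit-amplifying and limbal cells, 0.0307% between transit-amplifying and basal cells, 0.472% between conjunctival and basal cells and 0.615% between conjunctival and transit-amplifying cells. Epas1 (1.49), a hypoxia-inducible factor, Mt2 (1.37), a metallothionein, Slc6a6 (1.32), the taurine transporter, Apoe (1.12) and Sptssb (1.08) were also higher. Psca (-0.82), Cysrt1 (-0.73), Aqp5 (-0.58), a water channel, Lypd2 (-0.56) and Ifit1bl1 (-0.55) were lower. Apoe was among the 5 largest rises named by rule in all 4 Gpha2 comparisons. That rule left out members and genes with a mean log2 CPM under 5, some of which rose more.

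A comparison of dividing with other limbal cells was planned but not made, because library 1 had only 7 limbal cells with a Mki67 or Top2a UMI, under the minimum of 10 cells. Described without a test, Gpha2 was found in 28.6% (2 of 7), 75.8% (25 of 33) and 60% (6 of 10) of such cells and in 85.8%, 87.9% and 76.1% of the rest. The share was lower in the dividing cells of each library. Of these cells 42.9%, 27.3% and 50% were among those of highest doublet score, against 10.3%, 8.31% and 14.8% of the rest, and their median depth was 28955, 13608 and 9009 UMIs against 10028, 9060 and 6281. The part of doublets was not tested.

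The genes whose levels ran most like those of Gpha2 were sought over the 21 sums of 7 epithelial classes and 3 libraries, by Pearson's r of log2(CPM + 1) among 8319 genes, as a description over sums that share libraries. They were Col4a6 (0.981), a basement membrane collagen, Serping1 (0.966), the C1 inhibitor, Wnt5b (0.963), a Wnt ligand, Pltp (0.961), Olfml2a (0.960), Igfbp7 (0.960), a secreted binding protein, Adgra3 (0.958) and Ctsz (0.958), a cathepsin. Among the members, Cd63 (0.922), Sostdc1 (0.914) and Ccdc3 (0.910) were most like Gpha2, then Wfdc18 (0.742), Cyp2f2 (0.719) and Tppp3 (0.290). Cd63 was most like Arl4c (0.982), Hspb8 (0.980) and Ccdc3 (0.978), and Ccdc3 most like Actn1 (0.983), Car12 (0.981) and Arl4c (0.979). Sostdc1 followed Mdk (0.984), Rnase4 (0.983) and Igfbp2 (0.976), which also reached basal cells. Cyp2f2 followed Apobec3 (0.984), Flrt2 (0.976) and Hspb8 (0.969), and Tppp3 followed Osr2 (0.970), Filip1l (0.964) and the conjunctival keratin Krt4 (0.959). Wfdc18 had the loosest neighbours, Crabp2 (0.930), Aadac (0.913) and Krtdap (0.913). The 26 places, held by 24 different genes, depend on the measure: 7 were kept with Spearman's rho.

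Partners and relatives of the 7 genes were read from lists, as ratios of limbal to basal level of the same sign in all 3 libraries, beside 39.2% of 12089 genes higher and 22.7% lower in limbal cells (median log2 ratio 0.11). Of the thyrostimulin list, Gphb5, the partner of Gpha2, was the 1 gene of 8 in the table, with 7 UMIs in limbal and 0 in basal cells, and no receptor was among the genes of the table. Of 13 tetraspanins and partners of Cd63 at 1 CPM or more, 8 were higher and 2 lower (median 0.31). Cd9 was lower, at 1269.7 ± 155 against 1820.3 ± 150.1 CPM (SD, n = 3), Cd81 was at 165 against 149 CPM, Tspan1 at 7.51 against 0.674 CPM, and Tspan13 had 51 limbal and 5 basal UMIs. Of 20 BMP and Wnt genes around Sostdc1, 12 were higher and 4 lower (median 0.37). The BMP targets Id1 and Id3 stood at 344 ± 33.7 against 8.63 ± 0.557 CPM and 345 ± 117 against 41.8 ± 9.08 CPM, the ligand Wnt4 at 437 against 592 CPM, and Bmp4 had 25 limbal UMIs and 1 basal UMI. Id1 was 34.9 to 45.3 times higher in limbal cells, the larger of these ratios.

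Of 9 relatives of Cyp2f2 among P450 and detoxifying enzymes, 5 were higher and 1 lower (median 1.30). Cyp2a5 was at 145 ± 54.2 CPM in limbal, 1.06 CPM in basal and 761 ± 162 CPM in conjunctival cells (SD, n = 3), Gsto1 at 7406 against 1595 CPM, Gsta4 at 5393 against 4229.9 CPM, and Cyp4b1 had 51 limbal and 3 basal UMIs. Unlike Cyp2f2, Cyp2a5 was thus highest in the conjunctiva. Among whey acidic protein genes 2 of 3 were higher: Slpi, an antiprotease, at 9.37 against 0.322 CPM, and Wfdc5, with 15 UMIs against 2, while the abundant Wfdc2 was at 517 ± 53.6 against 521 ± 30.3 CPM. All 6 tubulin genes and partners were higher (median 1.26), among them Tubb4b at 541 against 228 CPM, Stmn1 at 245 against 39.9 CPM and Tuba1a at 60.1 against 10.0 CPM. Of 15 limbal genes used in the field, 7 were higher and 5 lower (median -0.13). Krt15 was at 8912 against 207 CPM, Krt14 at 3529 against 590.5 CPM and Krt17 at 461 ± 233 against 1.39 ± 1.18 CPM, while the metallothioneins Mt1 and Mt2, the transporter Abcg2, Lrig1 and the transcription factor Trp63 were lower.

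The same lists were then read in the comparisons within classes, where 13.8% of all genes tested were called in limbal cells by Gpha2, 24.8% by mucosal keratins, 0.486% in basal, 0.837% in transit-amplifying and 0.856% in conjunctival cells. With Gpha2 in limbal cells, of 7 BMP and Wnt genes tested Wnt10a (1.90) and Id3 (1.55) rose and none fell (median 0.35, all genes 0.02), and of 5 tetraspanins and partners none was called. Of 6 detoxifying enzymes Cyp2a5 (-1.91), Gsto1 (-1.69) and Gsta4 (-0.88) fell, as Cyp2f2 did (median -0.70). Wfdc2 rose (0.83), the 1 whey acidic protein gene tested. Tubb4b (-1.30), Stmn1 (-0.78) and Tuba1a (-1.74) fell among 4 tubulin genes and partners (median -1.04). Among 9 limbal genes of the field, Apoe (2.19), Trp63 (1.13) and Krt14 (0.93) rose and Krt15 fell (-0.75) (median 0.33), as log2 fold changes in edgeR's quasi-likelihood test. In basal cells the field's list had 4 of 12 higher and 0 lower, Krt15 (0.95), Apoe (0.86), Ifitm3 (0.77) and Krt14 (0.26), so Krt15 rose there with Gpha2. In transit-amplifying cells Id1 (1.62), Id3 (0.69) and Wnt10a (0.48) rose and none fell among 16 BMP and Wnt genes. Of 13 limbal genes of the field 4 rose there, Krt17 (2.84), Apoe (1.40), Ifitm3 (0.95) and Krt14 (0.57), and 2 fell, Mt2 (-0.24) and Mt1 (-0.15). In conjunctival cells Id3 rose by 2.28, the 1 call among 8 BMP and Wnt genes. The field's list had 3 of 9 higher and 0 lower there, and 1 of 7 detoxifying enzymes was lower. With mucosal keratins, limbal cells had Wnt10a (-1.88), Id3 (-1.39), Dkk3 (-1.35) and Sfrp1 (-0.80) lower among 9 BMP and Wnt genes and none higher. The other lists held calls too. Of 6 detoxifying enzymes 4 were higher and 1 lower, and of 4 tubulin genes and partners 3 were higher and 0 lower. Of 10 limbal genes of the field 2 were higher and 5 lower, and of 5 tetraspanins and partners 1 was higher and 2 lower. The 1 whey acidic protein gene tested was lower.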

How the data were processed

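UMI counts per gene and cell, with a cell class for each barcode, were deposited by the authors as 1 matrix of 3 libraries. Per the submitters' processing notes, Cell Ranger 5.0.0, Seurat 4 and mm10 were used. How cells were filtered, classes assigned and doublets handled was not given in the sources read here. Libraries were matched to samples by number, library 1 by elimination, and 0 columns were left unused. The libraries held 187340736, 177449217 and 190393121 UMIs. Nothing says that they came from separate preparations beyond separate mice. The library block takes out differences in level between libraries. The p-values thus set the difference between arms against a variation that edgeR estimates by sharing information over all genes. They do not measure the spread between libraries or animals. A small p-value does not mean that the libraries moved alike: Wfdc18, Cd63 and Tppp3 were called in limbal cells by Gpha2 with mixed signs.

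The 7 genes and all lists were chosen with earlier results of these data known. Levels are CPM of counts summed per library and class. Shares use cells thinned to 2000 UMIs, without shallower cells, with exact Clopper-Pearson 95% intervals that cover counting error only. Likeness used sums of genes with at least 10 CPM in a class.

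Comparisons within a class summed thinned counts per library and arm, left out the genes that define the arms, and used edgeR 4.0.16 (TMM, filterByExpr, robust quasi-likelihood F test, library as a block, Benjamini-Hochberg over all genes tested, 0.05) in R 4.3.3. Both arms of a library come from the same mice, which is where the pairing comes from. DESeq2 1.42.0 was an alternative. Simulated doublets (50 neighbours, top 5% of a library) marked cells that were kept except in 1 alternative. On simulated counts of the limbal Gpha2 comparison (2398 genes tested), the fit recovered 98.8% of the 83 tested genes changed by a log2 fold of 2. It recovered 63.7% of the 91 changed by 1, and 3.45% of its calls were false. False calls made up 8.38% in the basal and 6.29% in the transit-amplifying comparison. The simulation had a fixed dispersion and, unlike the data, no difference between libraries, so it does not speak for the real tests. Other software was Python 3.11.15, numpy 2.4.6, scipy 1.17.1, pandas 2.3.3, scikit-learn 1.9.0 and matplotlib 3.10.9.

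Named genes were the 7 members, the 8 genes most like Gpha2 and 3 most like each other member, and the 5 largest rises and 5 largest falls per comparison with an adjusted p under 0.05, the same sign in 3 libraries and an average log2 CPM no lower than 5, without mitochondrial, ribosomal protein and predicted genes. Of each list the 2 most abundant in limbal cells and the 2 with the largest ratio to basal cells were named, and other list genes were named after their values were seen. Of the marker lists, melanocyte genes stood at 0.577 to 2.95 CPM in limbal cells, glial genes at 1.64 to 4.64 CPM, goblet genes at 32.5 to 57.1 CPM, dividing-cell genes at 82.9 to 112 CPM, and Dcn, the 1 stromal gene of 6 in the table, at 8.65 to 12.7 CPM.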

Additional observations from a re-analysis of the deposited data

Results flagged for a closer look

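The effect of carrying Gpha2 had opposite signs in a pair of classes for 14 results, each because every library moved one way in the first class and every library the other way in the second. The values are log2 fold changes of cells with over cells without Gpha2, and the difference was tested as an interaction in edgeR's quasi-likelihood fit of both classes, chosen after seeing the data.

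Among the members, Cyp2f2 was at 1.53 in conjunctival and -0.85 in limbal cells, a difference of 2.37 (adjusted p = 4.4e-14, edgeR), with 3.1% of genes called. Tppp3 was at 1.04 in transit-amplifying and -0.18 in conjunctival cells, a difference of 1.36 (adjusted p = 0.0417, edgeR), with 0.615% of genes called, although neither value was called alone.

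The keratin Krt15 was at 0.95 in basal and -0.75 in limbal cells (difference 1.65, adjusted p = 1.9e-50, edgeR), with 3.66% of genes called, and at 1.34 in transit-amplifying against -0.75 in limbal cells (2.05, adjusted p = 0.0617, edgeR), with 4.12% called. Ifitm1, an interferon-induced membrane protein, was at 0.92 in basal and -0.54 in limbal cells (1.43, adjusted p = 1.5e-21, edgeR), and at 1.18 in transit-amplifying against -0.54 in limbal cells (1.72, adjusted p = 0.294, edgeR). The defensin Defb1 was at 0.94 in basal and -0.36 in conjunctival cells (1.39, adjusted p = 6.5e-10, edgeR), with 0.472% called, and at 0.75 in transit-amplifying against -0.36 in conjunctival cells (1.24, adjusted p = 2.8e-06, edgeR).

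Mt2, a metallothionein, was at 0.33 in limbal against -0.12 in basal cells (0.54, adjusted p = 0.0402, edgeR) and -0.24 in transit-amplifying cells (0.63, adjusted p = 0.0057, edgeR), and at 1.37 in conjunctival against the same 2 values (1.36, adjusted p = 5.9e-06, and 1.46, adjusted p = 4.3e-07, edgeR). The linker histone Hist1h1c was at 0.85 in limbal against -0.47 in transit-amplifying cells (1.37, adjusted p = 0.0540, edgeR) and -0.35 in conjunctival cells (1.21, adjusted p = 0.390, edgeR), and neither difference was called.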

How the results depend on the processing

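Direction and call held in 109 of 148 member tests under an alternative, 35 lost the call, 2 gained it and 2 reversed, namely Wfdc18 in limbal cells with Gpha2 at 4000 UMIs per cell (0.48) and Tppp3 in conjunctival cells at 4000 UMIs (0.093), neither called. The cause was not tested. Counts of genes called moved as follows from 334 (limbal by Gpha2), 44 (basal), 78 (transit-amplifying), 46 (conjunctival) and 661 (limbal by mucosal keratins). DESeq2 called 99, 17 and 292 in the limbal, transit-amplifying and mucosal comparisons, giving an adjusted p to 874 of 2426 and 6607 of 9317 genes in the former pair. Without the replicate block, which pairs the arms of a library, 187, 0, 0 and 2 were called in the 4 Gpha2 comparisons (unadjusted p under 0.05 for 301 genes in the conjunctival comparison) and 488 by mucosal keratins. At 1000 UMIs per cell 26, 21, 20 and 288 were called in the basal, transit-amplifying, conjunctival and mucosal comparisons, and at 4000 UMIs 124, 197, 80 and 1212. With 2 Gpha2 UMIs as the threshold the transit-amplifying and conjunctival comparisons had 128 and 110, and without the cells of highest doublet score the limbal comparison had 214. Leaving out 1 library gave 176 (without replicate 2) to 285 in limbal, 22 (without replicate 3) to 52 in basal, 19 (without replicate 3; 43 without replicate 2) to 73 in transit-amplifying, 8 (without replicate 3) to 89 (without replicate 2) in conjunctival cells, and 358 (without replicate 2; 414 without replicate 3) to 653 by mucosal keratins, with an arm of 2 libraries each. The level of Gpha2 in limbal cells, 2700.0 CPM, became 2324 CPM with TMM over the class sums, 3451 CPM as a mean over cells and 3386 CPM without the cells of highest doublet score. Its limbal share of 81.8% became 93.8% unthinned, 73.3% at 1000 UMIs and 70.1% at 2 UMIs or more, and its basal share of 17.2% became 44.3%, 10.2% and 4.43%, and 27.8% at 4000 UMIs, so shares hold only for a stated depth. Of the 26 places for genes most like a member 13 were kept with the immune sums, 7 with Spearman's rho, 17 with no filter, 13 with a pseudocount of 0.1 CPM and 17 to 21 when 1 library was left out. The comparison of dividing limbal cells was not run under any setting, although at 4000 UMIs every library reached 10 cells. Rare members are limited by depth: Sostdc1 passed the filter on low counts in none of the 5 comparisons at the main setting, and under some alternatives in basal and transit-amplifying cells.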
